A study of Mus musculus with 4 samples.

Results

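The Hox cluster genes of the mouse were followed across 4 libraries of colon RNA. Members were all rows whose symbol names a gene of the Hoxa, Hoxb, Hoxc or Hoxd cluster with its paralogue number, which gave 39 of the 44788 gene rows: 11 Hoxa genes on chromosome 6, 10 Hoxb genes on chromosome 11, 9 Hoxc genes on chromosome 15 and 9 Hoxd genes on chromosome 2. The rows were matched by symbol alone, but the family was chosen with earlier results of these data known. The 4 groups, each with 1 library from C57BL/6 mice, were wild type (WT) without treatment, WT after AOM/DSS, mice labelled Card9-/- without treatment, and mice labelled Card9-/- after AOM/DSS. AOM/DSS combines azoxymethane, a mutagen given once at 10 mg/kg on day 1, with dextran sulfate sodium, an irritant of the colon given at 2% in the drinking water in 3 cycles of 7 days, and is used to raise colon tumours on a background of colitis. AOM/DSS tissue was taken on day 100 and untreated tissue carries day 0 in its labels, so treatment and day cannot be told apart. The labels name the tissue only as colon, and which stretch of the colon was taken, and whether it held tumour or came from 1 mouse or a pool, is not given in the sources used here.

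Hox genes encode homeodomain transcription factors that give cells their position along the body axis. Within each cluster the genes lie in the order in which they are used, so that genes of low paralogue number mark anterior tissue and genes of high number mark posterior tissue. In the gut this order is kept into adult life, and the genes of paralogue group 13 mark the end of the hindgut, where Hoxa13 and Hoxd13 take part in forming the distal colon and anorectal region and Hoxb13 marks the distal colon and rectum. The label and the stretch of colon sampled cannot be told apart in 4 libraries whose labels give no position.

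The libraries held 23022885 to 27706567 counts. Values are reads per gene symbol, given here as raw counts or as CPM, counts per 1000000 counts of a library sized with TMM factors, and are listed throughout in the order WT untreated, WT AOM/DSS, labelled knockout untreated, labelled knockout AOM/DSS. Each group is a single library, so none of the differences could be checked against replicates, and the intervals are exact 95% Clopper-Pearson intervals that cover counting error only. Card9 held 44, 116, 69 and 245 counts, or 1.75, 5.32, 3.18 and 7.73 CPM, so neither library labelled knockout was below its WT partner. Such a count does not show whether the transcript was intact, and these libraries are named by their label only. A gene passed the size rule when the higher library of a pair held 50 counts or more and CPM + 1 differed by at least 2-fold. Folds in the text leave out the added 1, and where a library had 0 counts the fold is a lower bound set by a floor of 3 counts in that library.

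At least 1 count was found for 37 of the 39 Hox genes, and 28 reached 50 counts in some library. Hoxc12 and Hoxc13 had 0 counts in all 4 libraries. The number of Hox genes with a count was 36 and 35 in the WT libraries and 32 and 30 in the libraries labelled knockout. Of the 28 genes that reached 50 counts, 27 passed the size rule in at least 1 of the 4 pairs. The share of all genes that passed in at least 1 pair was not computed, so this count has no measure beside it. The remaining gene, Hoxa11, held 133, 104, 211 and 177 counts. Summed over the family, Hox genes made up 428, 358, 641 and 386 CPM, a total that was higher in the labelled knockout in both pairs but overlapped between the labels. In bulk tissue fewer cells of a type and less RNA per cell cannot be told apart.

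The promoters of 4 members are shown as examples of genes that differed in opposite directions: Hoxa13 and Hoxd13 were higher and Hoxb4 and Hoxd4 lower in both libraries labelled knockout. They are not the 4 largest differences. The sequences are the 250 bases before the gene start in the RefSeq annotation of GRCm38.p6, written 5′ to 3′ on the gene's own strand with each CpG in capitals. The windows are chr6:52260881-52261130 on the minus strand for Hoxa13, chr2:74667975-74668224 on the plus strand for Hoxd13, chr11:96318017-96318266 on the plus strand for Hoxb4 and chr2:74721728-74721977 on the plus strand for Hoxd4.
Hoxa13: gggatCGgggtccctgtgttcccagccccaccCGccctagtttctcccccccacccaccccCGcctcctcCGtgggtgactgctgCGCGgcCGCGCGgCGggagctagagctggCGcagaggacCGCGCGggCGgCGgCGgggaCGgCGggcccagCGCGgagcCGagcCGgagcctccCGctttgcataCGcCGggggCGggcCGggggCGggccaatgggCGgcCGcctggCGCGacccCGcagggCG
Hoxd13: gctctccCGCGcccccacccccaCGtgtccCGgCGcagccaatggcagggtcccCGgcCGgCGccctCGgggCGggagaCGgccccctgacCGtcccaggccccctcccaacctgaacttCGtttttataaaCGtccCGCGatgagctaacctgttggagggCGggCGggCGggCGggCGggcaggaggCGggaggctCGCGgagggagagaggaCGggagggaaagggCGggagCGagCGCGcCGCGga
Hoxb4: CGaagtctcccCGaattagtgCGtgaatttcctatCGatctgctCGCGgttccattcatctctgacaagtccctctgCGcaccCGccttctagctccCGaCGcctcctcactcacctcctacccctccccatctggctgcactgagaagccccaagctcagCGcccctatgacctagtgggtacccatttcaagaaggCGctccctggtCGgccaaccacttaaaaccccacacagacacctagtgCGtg
Hoxd4: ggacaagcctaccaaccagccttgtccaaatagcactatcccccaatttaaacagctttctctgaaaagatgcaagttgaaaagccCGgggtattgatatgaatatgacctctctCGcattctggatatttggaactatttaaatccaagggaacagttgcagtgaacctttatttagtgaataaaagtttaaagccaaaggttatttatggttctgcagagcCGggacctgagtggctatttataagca

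The Hoxa13 window held 35 CpG and the Hoxd13 window 31, and 2.97% and 5.19% of all 32851 promoter windows held at least as many. The Hoxb4 window held 14 CpG and the Hoxd4 window 3, counts reached by 29.4% and 71% of all windows. These 4 windows do not stand for the other members, since Hoxa9, which was higher in both label pairs, had 3 CpG and Hoxd3, which was lower in both, had 12. RefSeq promoter windows matched 22 of the 39 Hox genes (24 windows), with 2 to 35 CpG and a median of 12.5 against 6 over all windows. The letters TTTATG, a core that posterior Hox proteins and Cdx proteins can bind, were searched on both strands and occurred in 5 of 24 Hox windows (20.8%) and in 10.8% of all windows, with the Hoxd4 window among the 5. The letters TATAAA occurred in 4 of 24 Hox windows (16.7%) and in 12.4% of all windows, among them those of Hoxd13 and Hoxd4. The searched letters can overlap in a window, and a match is a description of the sequence only.

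Paralogue group 13 separated the libraries by label. Its 4 genes summed to 1.35 and 0.779 CPM in the WT libraries and to 376 and 208 CPM in the libraries labelled knockout. Hoxb13 (chr11:96194316-96196610, plus strand) held 1, 1, 7163 and 3438 counts, or 0.0397, 0.0459, 330 and 109 CPM. Both libraries labelled knockout were high and both WT libraries were at a single read, so the labels did not overlap for this gene. The share of all genes without overlap between labels was not computed. Here and below, such a separation only describes single genes. The fold between labels was 8311 (95% counting interval 1491 to 328297) without treatment and 2367 (425 to 93508) after AOM/DSS.

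Hoxd13 (chr2:74668225-74671603, plus strand) held 0, 1, 276 and 2758 counts, or 0, 0.0459, 12.7 and 87.1 CPM. Hoxd13 was thus at 0 or 1 read in the WT libraries, and unlike Hoxb13 it was highest in the labelled knockout after AOM/DSS. It was at least 107-fold higher in the labelled knockout without treatment and 1899-fold higher (340 to 75018) after AOM/DSS. Hoxa13 (chr6:52258853-52260880, minus strand) held 33, 15, 719 and 396 counts, or 1.31, 0.688, 33.1 and 12.5 CPM. It was the one member of the group with more than a single read in the WT libraries, and it was still 25.3-fold higher (17.8 to 37) and 18.2-fold higher (10.9 to 32.8) in the labelled knockout. The fourth member, Hoxc13, was at 0 counts in all 4 libraries, which allows up to 3 counts in each.

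The 3 expressed genes of group 13 did not contribute in the same proportion. Of the 8158 group 13 counts of the untreated labelled knockout, Hoxb13 gave 87.8% (87.1 to 88.5), Hoxa13 8.81% (8.21 to 9.45) and Hoxd13 3.38% (3 to 3.8). Of the 6592 counts after AOM/DSS, Hoxb13 gave 52.2% (50.9 to 53.4), Hoxd13 41.8% (40.6 to 43) and Hoxa13 6.01% (5.45 to 6.61). The larger part of the AOM/DSS total that came from Hoxd13 lay beyond counting error.

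**Figure D1:**
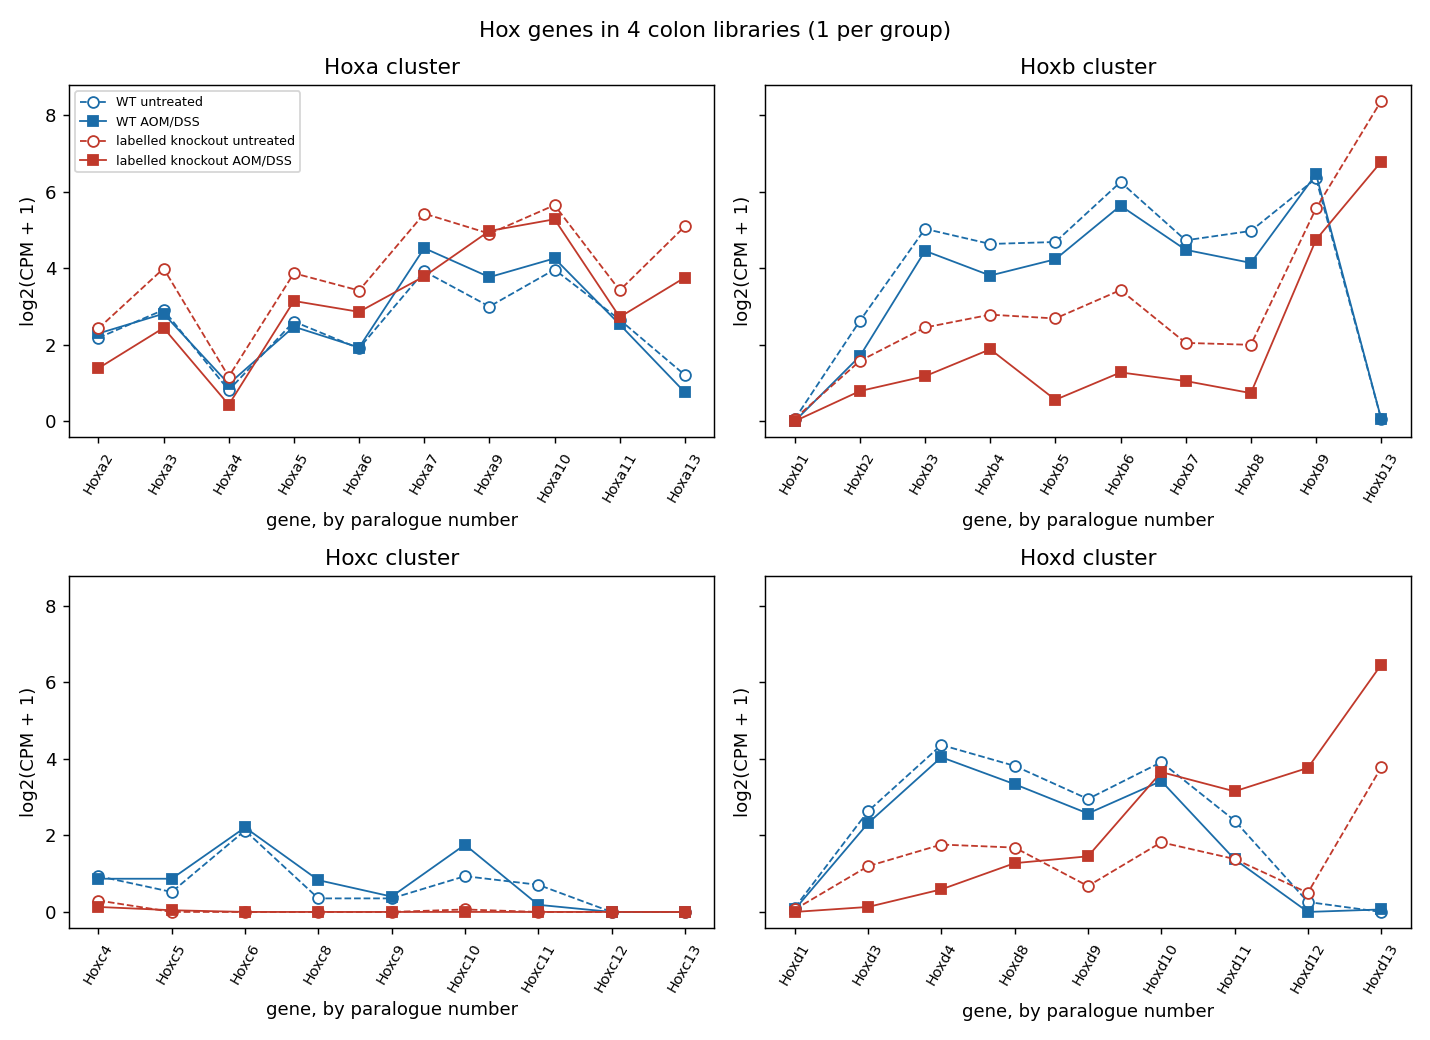
Level of the Hox genes as log2(CPM + 1) (vertical axis) by cluster and paralogue number (horizontal axis), with 1 point per library and no error bar because each group has 1 library. The points of the libraries labelled knockout lie above the WT points at Hoxa13, Hoxb13 and Hoxd13 and under them at Hoxb3 to Hoxb8.

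The Hoxb genes in front of Hoxb13 ran the opposite way. Hoxb1 to Hoxb8 summed to 216 and 140 CPM in the WT libraries and to 33.7 and 8.3 CPM in the libraries labelled knockout. Hoxb6, a central Hox gene, held 1892, 1059, 212 and 45 counts, or 75.1, 48.6, 9.76 and 1.42 CPM. Both WT libraries were above both others, and the labelled knockout was 7.69-fold lower (6.67 to 8.91) without treatment and 34.2-fold lower (25.4 to 47.2) after AOM/DSS. Hoxb8 held 766, 361, 65 and 21 counts, or 30.4, 16.6, 2.99 and 0.663 CPM, and was 10.2-fold lower (7.88 to 13.3) and 25-fold lower (16.1 to 40.8). Hoxb5 held 623, 389, 118 and 15 counts, or 24.7, 17.8, 5.43 and 0.473 CPM, and was 4.55-fold lower (3.73 to 5.59) and 37.7-fold lower (22.6 to 68). These central genes had the same order of libraries, with WT untreated highest and the labelled knockout after AOM/DSS lowest.

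Hoxb7 held 642, 465, 68 and 34 counts, or 25.5, 21.3, 3.13 and 1.07 CPM. Hoxb4 held 600, 284, 128 and 85 counts, or 23.8, 13, 5.89 and 2.68 CPM. Hoxb3, an anterior member, held 797, 456, 97 and 40 counts, or 31.6, 20.9, 4.46 and 1.26 CPM. In the labelled knockout, Hoxb7, Hoxb4 and Hoxb3 were 8.14-, 4.04- and 7.08-fold lower without treatment and 19.9-, 4.85- and 16.6-fold lower after AOM/DSS. Hoxb2 held 130, 49, 43 and 23 counts, or 5.16, 2.25, 1.98 and 0.726 CPM, and was 2.61-fold lower (1.83 to 3.77) in the untreated pair, while in the AOM/DSS pair it was under the count minimum. Hoxb1, at the anterior end of the cluster, had at most 1 count in any library.

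Hoxb9 sits between these genes and Hoxb13 and was high in every library. It held 2025, 1892, 1003 and 816 counts, or 80.3, 86.8, 46.2 and 25.8 CPM. The labelled knockout was 1.74-fold lower (1.61 to 1.88) without treatment, short of the size rule, and 3.37-fold lower (3.1 to 3.66) after AOM/DSS. Hoxb9 lies 78.5 kb from Hoxb13, measured between gene midpoints, so that the opposite differences of neighbouring Hoxb genes were separated by the longest gap between neighbours among the Hoxa, Hoxb and Hoxd clusters.

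The Hoxd cluster changed direction along its length. Hoxd1 to Hoxd8 summed to 37.9, 28.7, 5.94 and 2.02 CPM, and Hoxd11 to Hoxd13 to 4.44, 1.65, 14.7 and 108 CPM. Hoxd4 held 493, 339, 52 and 16 counts, or 19.6, 15.5, 2.39 and 0.505 CPM, and was 8.17-fold lower (6.13 to 11.1) in the untreated labelled knockout and 30.8-fold lower (18.7 to 54.5) after AOM/DSS. Hoxd3 held 131, 87, 28 and 3 counts, or 5.2, 3.99, 1.29 and 0.0947 CPM, and was 4.03-fold lower (2.67 to 6.3) and 42.1-fold lower (13.9 to 208). Hoxd8 held 330, 199, 48 and 45 counts, or 13.1, 9.12, 2.21 and 1.42 CPM, and was 5.93-fold and 6.42-fold lower. Hoxd3, Hoxd4 and Hoxd8 had the label order of Hoxb3 to Hoxb8, with no overlap between labels, a separation whose share over all genes was not computed.

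Hoxd9 held 170, 108, 13 and 55 counts, or 6.74, 4.95, 0.598 and 1.74 CPM, and was 11.3-fold lower (6.42 to 21.6) and 2.85-fold lower (2.04 to 4.02), the latter short of the size rule when libraries were scaled by their totals alone (log2 ratio -0.93). Hoxd10 held 356, 212, 55 and 368 counts, or 14.1, 9.72, 2.53 and 11.6 CPM. It was 5.58-fold lower (4.19 to 7.55) in the untreated labelled knockout and 1.19-fold higher (1.01 to 1.42) after AOM/DSS, so the labels overlapped for Hoxd10. Hoxd11 held 107, 35, 35 and 250 counts, or 4.24, 1.6, 1.61 and 7.89 CPM, and was 2.63-fold lower (1.78 to 3.98) without treatment and 4.92-fold higher (3.44 to 7.22) after AOM/DSS. Hoxd11 also overlapped between labels, since 1 library of each label stood at 35 counts. Hoxd12 held 5, 0, 9 and 399 counts, or 0.198, 0, 0.414 and 12.6 CPM, and was at least 91.6-fold higher in the labelled knockout after AOM/DSS, while both untreated libraries were under 10 counts. Hoxd1, the anterior end of the cluster, had at most 2 counts.

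The Hoxa cluster was higher, not lower, in the untreated labelled knockout over most of its length. Hoxa9 to Hoxa11 summed to 26.8, 35.4, 87.6 and 73.8 CPM. Hoxa9 held 176, 274, 627 and 962 counts, or 6.98, 12.6, 28.9 and 30.4 CPM, and was 4.13-fold higher (3.49 to 4.91) without treatment and 2.42-fold higher (2.11 to 2.77) after AOM/DSS. Hoxa10 held 367, 395, 1066 and 1198 counts, or 14.6, 18.1, 49.1 and 37.8 CPM, and was 3.37-fold higher (2.99 to 3.8) and 2.09-fold higher (1.86 to 2.35). Both genes were higher in both libraries labelled knockout than in both WT libraries.

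Further towards the anterior end no Hoxa gene passed the size rule in the AOM/DSS label pair. Hoxa7 held 355, 480, 913 and 405 counts, or 14.1, 22, 42 and 12.8 CPM, and was 2.98-fold higher (2.64 to 3.38) in the untreated labelled knockout, which stood above the other libraries. Hoxa6 held 69, 61, 210 and 198 counts, or 2.74, 2.8, 9.67 and 6.25 CPM, and was 3.53-fold higher (2.68 to 4.7) without treatment and 2.23-fold higher (1.67 to 3.03) after AOM/DSS, where CPM + 1 differed by less than 2-fold. Hoxa5 held 128, 99, 296 and 248 counts, or 5.08, 4.54, 13.6 and 7.83 CPM, and was 2.68-fold higher (2.17 to 3.33). Hoxa5 and Hoxa6 stayed above both WT libraries after AOM/DSS, whereas Hoxa7 did not. Hoxa3 held 164, 131, 324 and 140 counts, or 6.51, 6.01, 14.9 and 4.42 CPM, and was 2.29-fold higher (1.89 to 2.78) without treatment. Hoxa2 held 89, 85, 95 and 51 counts, or 3.53, 3.9, 4.37 and 1.61 CPM, and did not pass in either label pair, although its CPM after AOM/DSS was 2.42-fold lower (1.69 to 3.5). Hoxa4 held 19, 21, 27 and 11 counts, under the count minimum.

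The Hoxc cluster was close to silent in the libraries labelled knockout. All 9 Hoxc genes summed to 172 and 194 counts (6.82 and 8.9 CPM) in the WT libraries and to 6 and 4 counts (0.276 and 0.126 CPM) in the others. Hoxc6, the most abundant Hoxc gene, held 85, 79, 0 and 0 counts, or 3.37, 3.62, 0 and 0 CPM, and was at least 24.4-fold lower in the untreated labelled knockout and at least 38.3-fold lower after AOM/DSS. Hoxc10 held 23, 52, 1 and 0 counts, or 0.912, 2.38, 0.046 and 0 CPM, and was at least 25.2-fold lower after AOM/DSS. Hoxc4, Hoxc5, Hoxc8, Hoxc9 and Hoxc11 had 3 to 23 counts in the WT libraries and 0 to 5 in the others, too few for the size rule.

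Counted over the family, 9 of 26 Hox genes with enough counts were higher in the untreated labelled knockout, beside 4.46% of all 15352 genes, and 14 of 26 were lower, beside 3.37% of all genes. After AOM/DSS, 7 of 27 were higher, beside 11.9% of 15779 genes, and 13 of 27 were lower, beside 12.4%. The untreated and the AOM/DSS label pair share no library with each other, while each shares 1 library with either AOM/DSS comparison. Hoxa9, Hoxa10, Hoxa13, Hoxb13 and Hoxd13 were higher in both pairs (5 of 25 with enough counts, beside 0.793% of 14748 genes). Lower in both pairs were 11 of 25, beside 1.53% of all genes, namely Hoxb3 to Hoxb8, Hoxc6, Hoxd3, Hoxd4, Hoxd8 and Hoxd9. All 5 genes higher in both pairs belonged to paralogue groups 9 to 13, and 10 of the 11 lower in both belonged to groups 3 to 8.

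**Figure D2:**
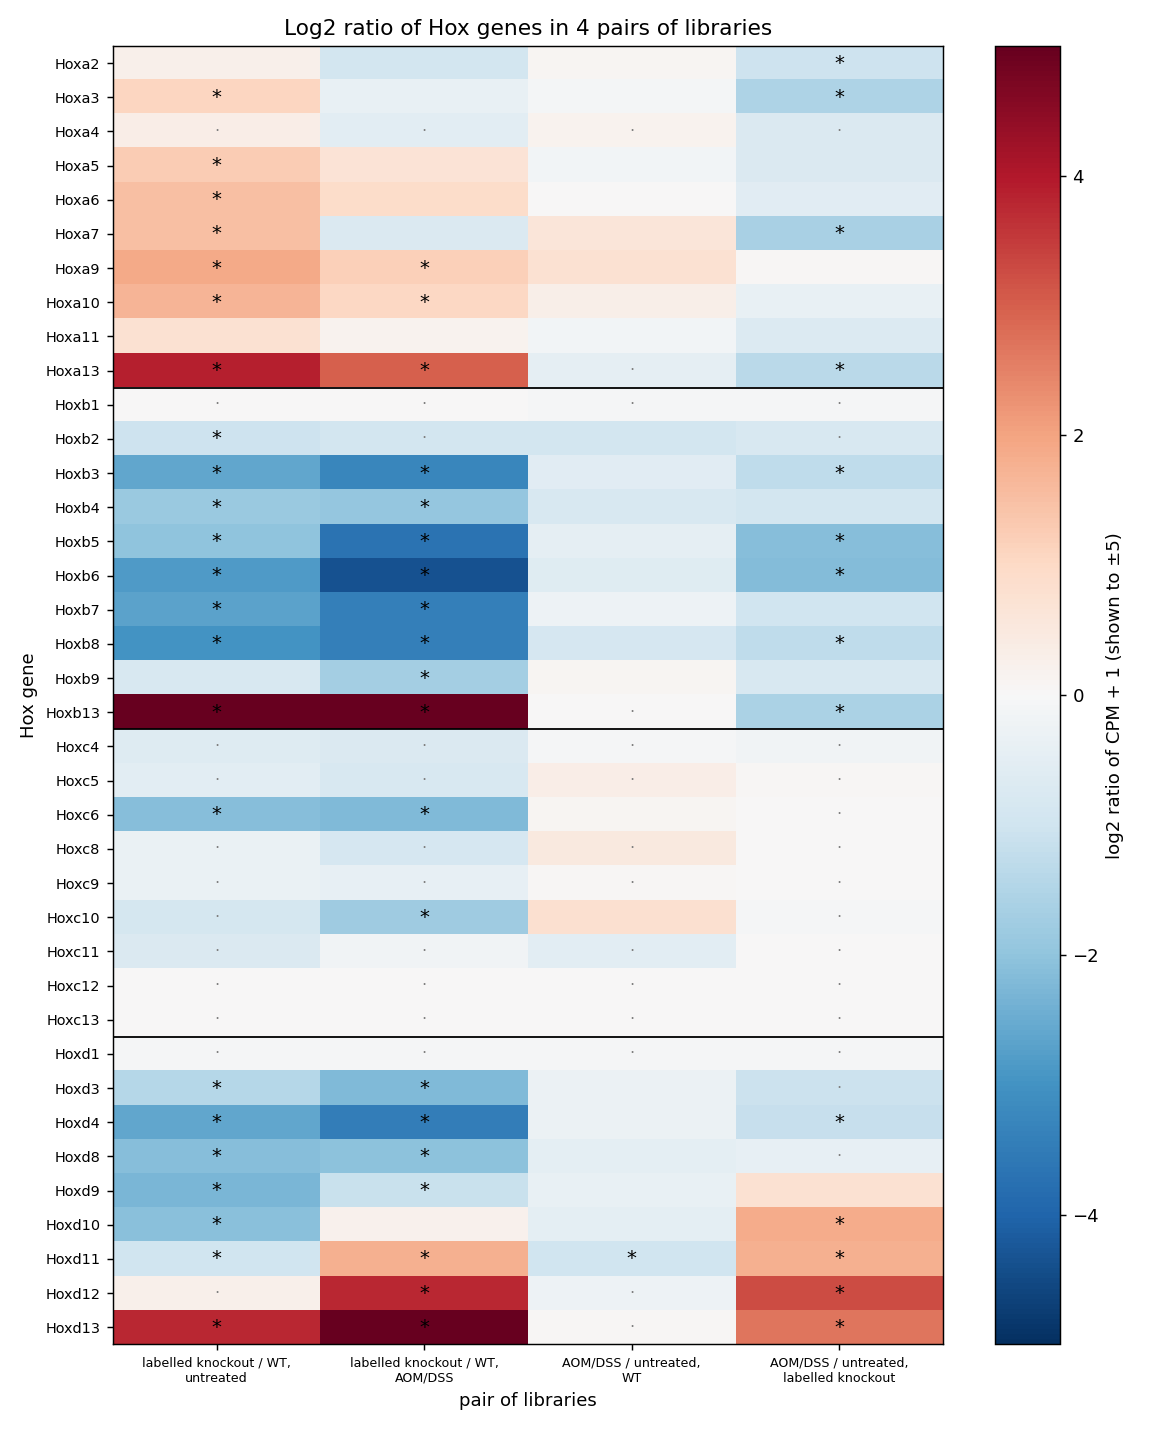
Log2 ratio of CPM + 1 for the Hox genes (rows) in the 4 pairs of libraries (columns), coloured from blue (lower) to red (higher) and shown to 5 in either direction. A star marks a gene past the size rule and a dot a gene under 50 counts in both libraries. The first 2 columns share the 5 higher and 11 lower genes that passed in both label pairs, and the WT AOM/DSS column has 1 star.

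The members were also grouped into blocks of paralogues. Among genes with at least 50 counts summed over the libraries, the 12 of groups 4 to 8 had a median log2 ratio of labelled knockout over WT of -2.06 without treatment and -2.14 after AOM/DSS, while the median of all genes was 0.00 and -0.02. The 12 genes of groups 9 to 13 had medians of 0.51 and 1.12, which became -0.06 and 0.63 when all members with a count entered, so the direction in the untreated pair depended on that choice. Their single values ran from -2.28 to 8.31 and from -1.76 to 6.71. The 6 genes of groups 1 to 3 had medians of -0.43 and -0.91. With libraries scaled by their totals alone the all-gene median was -0.08 and 0.21 in the 2 pairs, a shift smaller than the Hox folds named here.

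**Figure D3:**
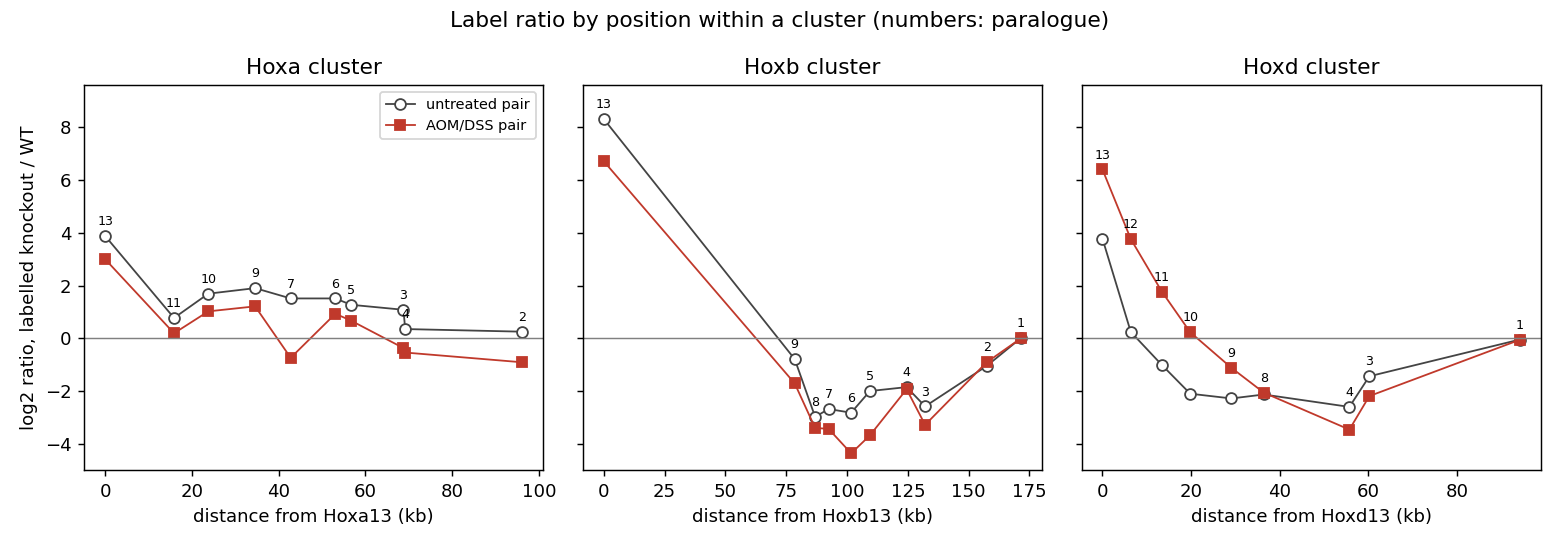
Log2 ratio of CPM + 1, labelled knockout over WT (vertical axis), against the distance in kb between gene midpoints from the paralogue 13 gene of the cluster (horizontal axis), for the untreated pair (open circles) and the AOM/DSS pair (filled squares), with paralogue numbers beside the points and 1 library on each side of a ratio. Ratios are highest at paralogue 13 in all 3 clusters and negative from Hoxb9 to Hoxb2 in both pairs.

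Read along the chromosome, the label difference went from positive at paralogue 13 to negative further into the Hoxb and Hoxd clusters. In the Hoxd cluster the sign changed between Hoxd12, 6.4 kb from Hoxd13, and Hoxd11, at 13.4 kb, in the untreated pair, but Hoxd12 held 5 and 9 counts there (2.09-fold, 0.629 to 7.93), so its own sign was not detectable at this depth. In the AOM/DSS pair the sign changed between Hoxd10, at 19.8 kb, where the ratio was small, and Hoxd9, at 29.1 kb. In the Hoxb cluster it changed between Hoxb13 and Hoxb9 in both pairs. The Hoxa cluster had no such change of sign in the untreated pair, where Hoxa2 to Hoxa13 were all above the WT library. In the AOM/DSS pair the Hoxa ratios had mixed signs, with log2 ratios of 1.21 at Hoxa9, -0.74 at Hoxa7, 0.93 at Hoxa6, -0.37 at Hoxa3 and -0.91 at Hoxa2.

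The 4 libraries allow one fit across all genes, an additive model of label and treatment with 1 residual degree of freedom that holds the interaction. It was added after the data were seen. With edgeR's quasi-likelihood test and Benjamini-Hochberg adjustment, 0 of 31 Hox genes and 0 of all 18973 genes had an adjusted p under 0.05 for the label. Hoxb13 and Hoxd13 were nonetheless the first and second of all genes by p, both with an adjusted p of 0.129 (edgeR), higher in the labelled knockout in both pairs, and Hoxa13 was at rank 10 with an adjusted p of 0.336 (edgeR). An unadjusted p under 0.05 was reached by 21 of 31 Hox genes (67.7%), beside 3.93% of all genes. DESeq2 on the same design gave an adjusted p under 0.05 for 13 of 32 Hox genes, beside 1.27% of all 19747 genes, with Hoxb13 at rank 2 (DESeq2 adjusted p 7.55e-22). The number of calls thus rested on the tool, and both fits treat the interaction as the spread between libraries.

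More genes of all kinds passed between treatments in the labelled knockout than in WT, and the Hox counts are set beside those shares. In WT mice 0 of 24 Hox genes with enough counts were higher after AOM/DSS, beside 4.08% of 15356 genes, and 1 of 24 was lower, beside 3.88%. That gene was Hoxd11, 2.65-fold lower (1.79 to 3.99), with a log2 ratio of -1.01 close to the 2-fold line. In the labelled knockout 4 of 23 were higher, beside 14.1% of 15900 genes, and 10 of 23 were lower, beside 15.9%. The counts in WT and the higher count in the labelled knockout lay near the shares of all genes. No Hox gene was higher in both AOM/DSS pairs (0 of 19, beside 1.80% of 14873 genes) or lower in both (0 of 19, beside 1.59%). No test of these single pairs was made, since each side is 1 library.

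The 4 genes higher after AOM/DSS in the labelled knockout were the neighbours Hoxd10 to Hoxd13. Hoxd10 was 4.59-fold higher (3.45 to 6.21), Hoxd11 4.9-fold (3.43 to 7.19), Hoxd12 30.4-fold (15.9 to 67) and Hoxd13 6.85-fold (6.05 to 7.78). The other 2 expressed genes of group 13 went the other way, with Hoxb13 3.04-fold lower (2.92 to 3.17) and Hoxa13 2.65-fold lower (2.34 to 3). Central and anterior genes were lower too. Hoxb5 was 11.5-fold lower (6.68 to 21.1), Hoxb6 6.87-fold (4.96 to 9.7), Hoxd4 4.74-fold (2.66 to 8.89), Hoxb8 4.51-fold (2.72 to 7.77) and Hoxb3 3.54-fold (2.42 to 5.25). In the Hoxa cluster Hoxa3 was 3.37-fold, Hoxa7 3.29-fold and Hoxa2 2.72-fold lower, and Hoxa2 missed the size rule with DESeq2 size factors (log2 ratio -0.99) and with library totals (-0.84). Hoxa9 and Hoxa10 stayed within 2-fold. Over blocks, the median log2 ratio in the labelled knockout was -1.05 for groups 1 to 3, -0.95 for groups 4 to 8 and 0.00 for groups 9 to 13, where all genes stood at -0.03. In WT the medians were -0.21, -0.28 and -0.06, where all genes stood at 0.01. With libraries scaled by their totals the all-gene median was -0.04 in WT and 0.22 in the labelled knockout.

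**Figure D4:**
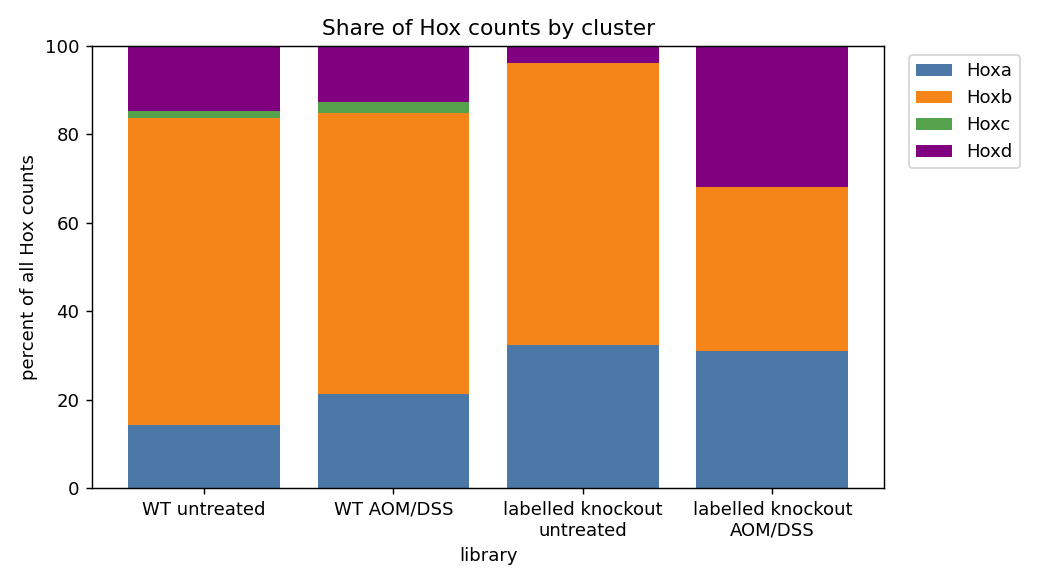
Share of all Hox counts of a library (vertical axis, percent) that came from each cluster, 1 bar per library. The Hoxd part is 3.71% in the untreated labelled knockout and 31.9% in the labelled knockout after AOM/DSS, while the Hoxc part is at most 2.49%.

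Shares within a library do not depend on the scaling between libraries. The Hoxb cluster gave 69.3% (68.4 to 70.2), 63.5% (62.4 to 64.6), 63.9% (63.1 to 64.7) and 37% (36.1 to 37.8) of all Hox counts. The like share in the untreated labelled knockout came from a different gene, since Hoxb13 alone held 7163 of its 8898 Hoxb counts. The Hoxa cluster gave 14.3%, 21.4%, 32.3% and 31.1%. The Hoxd cluster gave 14.8% (14.1 to 15.5), 12.6% (11.9 to 13.3), 3.71% (3.4 to 4.04) and 31.9% (31 to 32.7), so it was lowest in one library labelled knockout and highest in the other. The Hoxc cluster gave 1.59%, 2.49%, 0.0431% and 0.0327%.

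Per kilobase of exon, which allows levels of different genes to be compared, the leading gene also changed with the label. Hoxb6 led in untreated WT with 38.2 CPM per kb, followed by Hoxb9 with 31.2, and Hoxb9 led in WT after AOM/DSS with 33.7, followed by Hoxb6 with 24.7. Hoxb13 led in both libraries labelled knockout, with 149 and 49.2 CPM per kb. Next came Hoxb9 with 17.9 and Hoxa7 with 16.9 without treatment, and Hoxd13 with 35.1 and Hoxa10 with 12 after AOM/DSS.

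Genes that flank the clusters or lie within them were set beside the members. Evx1, a homeobox gene next to Hoxa13, held 1, 8, 55 and 1232 counts, and was 63.8-fold higher (11 to 2566) in the untreated labelled knockout and 106-fold higher (53.6 to 246) after AOM/DSS. Evx2, next to Hoxd13, held 0, 0, 9 and 62 counts. Ttll6, a tubulin glutamylase gene next to Hoxb13, stood at 26.8, 29.6, 50.6 and 6.69 CPM. Of the 10 names of the flanking list 7 matched a row, and the numbers higher and lower were 1 and 0 (labelled knockout over WT, untreated), 2 and 1 (AOM/DSS), 1 and 0 (AOM/DSS over untreated, WT) and 3 and 1 (labelled knockout). Of 7 transcripts within the clusters 4 matched, and Hoxa11os, the antisense transcript of Hoxa11, held 191, 144, 2992 and 1714 counts, 18.2-fold (15.7 to 21.1) and 8.19-fold (6.91 to 9.78) higher in the labelled knockout. That list had 1 higher and 0 lower in each label pair and 0 higher and 1 lower in each AOM/DSS pair. How the counting treated strand is not given in the sources used here, so reads of Hoxa11 and Hoxa11os cannot be told apart. In GENCODE M21, 12 Hox genes had exons that overlap another gene, 8 of them on the opposite strand. Among these 8 were Hoxa3, Hoxa4, Hoxa7, Hoxa11, Hoxb2, Hoxb3 and Hoxd3, and the other 4 (Hoxa2, Hoxd4, Hoxd10 and Hoxd11) share exon bases with a transcript on their own strand, so the counts of all 12 are uncertain. No gene of group 13 was among them.

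Cofactors and regulators of Hox genes were set beside the members as well. The counts of all lists, above and below, stand beside the shares of all genes and were not tested against them. In the untreated label pair 4.46% of all genes were higher and 3.37% lower, and after AOM/DSS 11.9% and 12.4%. Between treatments the shares were 4.08% and 3.88% in WT, and 14.1% and 15.9% in the labelled knockout. Of 9 TALE homeobox genes (Meis, Pbx and Pknox, whose proteins bind DNA with Hox proteins), 0 passed in the untreated label pair, and 1 was lower after AOM/DSS. That gene, Meis1, stood at 16.4, 14, 9.94 and 2.87 CPM. In each AOM/DSS pair 0 of the 9 were higher and 1 was lower, Meis3 in WT and Meis1 in the labelled knockout. Of 18 Polycomb and trithorax genes, whose products keep Hox genes silent or active, 0 passed in the untreated label pair. In the AOM/DSS label pair 2 were higher and 1 lower, not above the shares of all genes. Between treatments 0 passed in WT, and 4 were higher and 0 lower in the labelled knockout, among them Ezh2 at 26.7, 22.9, 24.7 and 54.5 CPM.

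Of 13 Cdx and retinoic acid genes, which act upstream of Hox genes in the embryo, 10 held enough counts in some library. In the untreated label pair 0 were higher and 2 lower, and 3 were higher and 3 lower after AOM/DSS. Cdx2, an intestinal homeobox gene, stood at 258, 279, 143 and 16.9 CPM. Gdf11, a signal that sets the position of posterior Hox domains in the embryo, stood at 1.27, 1.83, 1.47 and 25.9 CPM. In the untreated labelled knockout it was thus near its WT level, while Hoxb13 stood at 330 and Hoxd13 at 12.7 CPM there. A link between Gdf11 and Hox genes was not tested. Aldh1a3, which makes retinoic acid, stood at 18, 12, 4.6 and 132 CPM. Its relatives Aldh1a1 and Aldh1a2 were instead lowest in the labelled knockout after AOM/DSS. Aldh1a1 stood at 275, 250, 86.5 and 6.09 CPM and Aldh1a2 at 9.56, 2.75, 10.9 and 1.58 CPM. Between treatments 0 were higher and 2 lower in WT (Aldh1a2 and Cyp26b1), and 3 were higher and 5 lower in the labelled knockout.

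Markers of cell types moved with some of these comparisons, and their part in the Hox differences was not tested. The 8 epithelial markers summed to 11437, 13758, 12807 and 9329 CPM, so epithelium was present in all libraries. The 4 colon genes summed to 8065, 5764, 1592 and 91.2 CPM, lowest in the labelled knockout after AOM/DSS, with none of the 4 at 0. The 9 smooth muscle markers summed to 9050, 6958, 9412 and 1353 CPM, and the 9 markers of enteric neurons and glia to 90.1, 94.3, 67.2 and 39.6 CPM. Both sums were lowest in the labelled knockout after AOM/DSS. In the untreated label pair 0 of 9 smooth muscle markers were lower and 2 were higher. The 8 fibroblast markers summed to 2129, 1173, 1945 and 1147 CPM.

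The 10 squamous markers, which mark the lining of the anal canal, summed to 6.07, 9.45, 8.01 and 86.5 CPM. Of these, 6 of 10 were higher in the labelled knockout after AOM/DSS against either partner. In the untreated label pair 0 of 10 passed. Only Krt10 (56 counts in WT, 53 in the labelled knockout) reached the count minimum there, so the other markers could not have passed. Of the 6 bladder and prostate markers, which bear on Hoxb13 and Hoxd13 because the prostate expresses both, the sum was 9.56, 10.5, 14 and 6.34 CPM, and the prostate gene Pbsn was at 0 in all libraries. Single members went opposite ways in the labelled knockout after AOM/DSS: the uroplakin gene Upk3a held 5, 3, 0 and 117 counts and was 26.8-fold higher (8.96 to 132) than in WT, in the library with the most Hoxd13, while Upk1a held 170, 163, 283 and 32 counts and was 7.4-fold lower (5.04 to 11.2). The 4 fat markers summed to 144, 47.4, 4.74 and 3.09 CPM, and all 4 were lower in the untreated labelled knockout, 3 after AOM/DSS. The fat sum was thus higher in the 2 WT libraries, as the Hoxc sum was. Between the WT libraries the sums went opposite ways after AOM/DSS, fat from 144 to 47.4 CPM and Hoxc from 6.82 to 8.9 CPM. A link between fat and Hoxc genes was not tested. The 4 leukocyte markers summed to 64, 152, 90.5 and 217 CPM, the 4 endothelial markers to 210, 227, 192 and 226 CPM, and the 6 small intestine genes to 7.34, 96, 18.6 and 1.8 CPM.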

How the data were processed

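The authors deposited raw counts of reads for each gene symbol, in whole numbers that were not normalized, with 1 column per library. RNA was extracted with TRIzol and libraries were made with an Ion Proton RNA-seq kit, per the labels' protocols. The genome build is GRCm38 (mm10) as named in the submitters' processing notes. The sources used here name no aligner, counter, annotation or strand setting. Of the 44788 gene rows all were kept, there were 0 columns of other samples, and 27 symbols had been turned into dates.

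CPM were computed with TMM factors of 0.9915 (WT untreated), 0.9473 (WT AOM/DSS), 0.9311 (labelled knockout, untreated) and 1.1434 (labelled knockout, AOM/DSS), computed with edgeR 4.0.16 in R 4.3.3 over all genes. Ratios are log2 of CPM + 1, so that differences of genes with few counts are understated. Intervals are conditional on the sum of both counts (SciPy 1.17.1), and without molecular identifiers the reads need not be independent molecules. No p-value was computed for a pair, because each group has 1 library. The additive fits used edgeR's quasi-likelihood test and DESeq2 1.42.0, and only the edgeR fit was tested on simulated data. The simulated data held no treatment effect and no interaction, so that check does not cover either. Both fits had not been planned, and their p-values measure the spread that the interaction leaves.

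Every row matching a Hox symbol entered the sums and shares. Medians took the members with at least 50 counts summed over the libraries, and the size rule those with enough counts in a pair. Values in all 4 libraries are given for members past the size rule in at least 1 pair and for paralogue group 13, and genes of the other lists are named where they pass or lead their list. Hoxa4, Hoxa11, Hoxb1 and Hoxd1 were added by range or counts, and some genes are not reported here. The members and the lists were chosen with earlier results of these data known. Sequences, gene positions and starts are RefSeq's (GRCm38.p6), which matched all 39 members, and exon lengths and overlaps are those of GENCODE M21 on the same build. Alternatives were DESeq2 size factors, library totals, a pseudocount of 0.5 or 5 CPM, another count minimum, thinning to the smallest total, and weighting by exon length.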

Additional observations from a re-analysis of the deposited data

Results flagged for a closer look

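Hoxd11 moved in opposite directions in the 2 labels and in the 2 treatments. Its log2 ratio of AOM/DSS over untreated was -1.01 in WT and 1.77 in the labelled knockout, and its log2 ratio of labelled knockout over WT was -1.01 without treatment and 1.77 after AOM/DSS. These are readings of the same 4 libraries, with 107, 35, 35 and 250 counts in the order WT untreated, WT AOM/DSS, labelled knockout untreated and labelled knockout AOM/DSS. The difference was not tested, since each group has 1 library, and both negative values lie close to the 2-fold line.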

How the results depend on the processing

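No paired analysis was possible because each group had 1 library, and for the same reason no library could be left out of a pair. Of 58 single Hox ratios past the size rule, 1 (DESeq2 size factors), 2 (library totals) and 20 (pseudocount 5 CPM) fell under 2-fold. None changed direction under any scaling, pseudocount or thinning tried, which carries little weight. A pseudocount cannot change the sign of a ratio, and the scalings differed by less than the 2-fold that the size rule asks for. A pseudocount of 5 CPM moved low genes by construction. The number of Hox genes lower after AOM/DSS went from 1 to 2 in WT with a pseudocount of 0.5 CPM (0 to 1 higher), and to 0 with 5 CPM or at least 200 counts. In the labelled knockout it went from 10 to 5 with 5 CPM and to 5 with at least 200 counts. With at least 200 counts the number lower in the labelled knockout went from 14 to 9 untreated and from 13 to 8 after AOM/DSS, where fewer genes were eligible. Medians in the untreated label pair went from -0.43 to -1.05 (groups 1 to 3, at least 200 counts summed), from -2.06 to -1.37 (groups 4 to 8, 5 CPM) and from 0.51 to -0.06 (groups 9 to 13, all members with a count). The AOM/DSS median of groups 4 to 8 went from -2.14 to -2.68 (0.5 CPM), -1.18 (5 CPM) and -2.73 (at least 200 counts summed).

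Weighted per kilobase of exon, an alternative added after the data were seen, the Hoxa share was 13.6% (WT untreated), 19.9% (WT AOM/DSS), 30.9% (labelled knockout, untreated) and 29.1% (labelled knockout, AOM/DSS). The Hoxb share was 64.7%, 65.3% and 37.8% in the last 3 of these libraries, the Hoxc share 1.9% and 2.99% in the WT libraries, and the Hoxd share 33% in the labelled knockout after AOM/DSS. Within group 13 of the labelled knockout, Hoxb13 gave 89% and Hoxa13 7.97% untreated, and Hoxb13 55.1% and Hoxd13 39.3% after AOM/DSS. The additive fit called 13 Hox genes with DESeq2 and 0 with edgeR, and the cause was not tested. The other alternatives, 168 values, stayed within the bounds set for them. For shares the bound was the counting interval, and for counts 1.5 times the count. For medians it was the median half-width of the counting intervals of single genes, which is not the error of a median. With 5 CPM, AOM/DSS medians in the labelled knockout thus went from -1.05 to -0.40 (groups 1 to 3) and from -0.95 to -0.46 (groups 4 to 8). The untreated label median of groups 1 to 3 went from -0.43 to -0.02 (all members with a count). Weighting by RefSeq exon length was not run, since that table gives gene spans.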
